A study of Mus musculus with 6 samples.

Results

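The genes examined were 10 regulators of myeloid blood cell formation, of 27179 genes in an RNA-seq table: the C/EBP genes Cebpa, Cebpb, Cebpd, Cebpe, Cebpg and Cebpz, and Spi1, Gfi1, Gfi1b and Myb. They were taken by name, through the NCBI gene ID of each row, and all 10 were found. The libraries were made from long-term haematopoietic stem cells (LT-HSC) of C57BL/6 mice, gated in bone marrow by the phenotype Lin-Sca-1+c-Kit+CD48-CD150+. The control group (WT, genotype Prdm16-Mx1-Cko/Cko; +/+) and the knockout group (Cko, genotype Prdm16-Mx1-Cko/Cko; Tg/+) both carried conditional alleles of Prdm16, which encodes a zinc-finger regulator of stem cells, and only the Cko mice carried the Mx1-Cre transgene. Mice of 8 to 12 weeks in both groups were injected with pIpC 5 times, which evokes interferon and so switches on the Mx1 promoter, and cells were sorted 5 weeks later. For each genotype the cells came from 1 pool of 5 mice and were sorted into 3 technical replicates, so each error and p-value measures the spread between portions of 1 pool and not between animals. Mx1-Cre can act in any interferon-responsive cell, not in stem cells alone, and a group with Mx1-Cre and intact Prdm16 was not analysed here.

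C/EBP proteins are leucine-zipper factors that bind DNA as dimers. C/EBPα drives the step from progenitor to granulocyte and monocyte precursor, and C/EBPε is needed later for the secondary granules of neutrophils and for eosinophil maturation. PU.1, the product of Spi1, is an ETS factor shared by all myeloid cells and also needed in stem cells. Gfi1 and Gfi1b are zinc-finger repressors, Gfi1 of stem cells, lymphoid cells and neutrophils and Gfi1b of stem cells, erythroid cells and megakaryocytes. Myb is needed for progenitors of most lineages. Together with C/EBP proteins and PU.1, Myb is known to act on genes of the primary granules, which fill first and hold myeloperoxidase and serine proteases, whereas secondary and tertiary granules form later and hold lactoferrin, cathelicidin and gelatinase. The comparison asked whether these factors and the granule genes differed between Cko and WT LT-HSC.

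The libraries held 36747729 to 43743795 reads. Prdm16 itself was at 40.3, 50.5 and 31.7 CPM (counts of reads scaled to a common library size) in WT replicates 1 to 3 and at 8.74, 9.04 and 14.7 CPM in Cko. The groups did not overlap (log2 fold change -1.93, SE 0.27, limma adjusted p = 0.00829), and the call was lost without Cko replicate 2 (adjusted p = 0.0508) and without a variance trend (0.0967). Of 13018 tested genes 53 were called higher and 38 lower in Cko (limma, adjusted p below 0.05), which is 0.407% and 0.292%. All 14 LT-HSC markers examined passed the filter on low values and 0 were called, with a median log2 fold change of 0.13. Among lineage genes that the sort should exclude, Cd3e and Cd8a had 0 reads in every library, and Ly6g, the neutrophil surface marker, was at or below 1.05 CPM in each.

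None of the tested factors passed the test, and 10 of the 17 tested granule genes, of 20 in all, were called higher, beside 0.407% of all tested genes. Of these 10, Elane, Ctsg and Hp passed the filter through their Cko libraries alone and had to be higher. Of the 10 factors 9 passed the filter and 0 of these 9 were called, beside 0.699% of all tested genes in either direction. A count of 0 among 9 genes is near that background and is no result about these factors as a group. The log2 fold change was positive for 7 of the 9 and negative for 2, with a median log2 fold change of 0.13 beside 0.003 over all tested genes. In 4 of the 9 (Cebpd, Gfi1, Gfi1b and Myb) every Cko library lay above every WT library, a pattern found in 8.52% of tested genes, and in 0 of the 9 every Cko library lay below, found in 8.01%. At an unadjusted p under 0.05, 10.3% of all tested genes passed, and the factors whose 95% interval left out 0 were Cebpd, Gfi1 and Gfi1b.

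**Figure D1:**
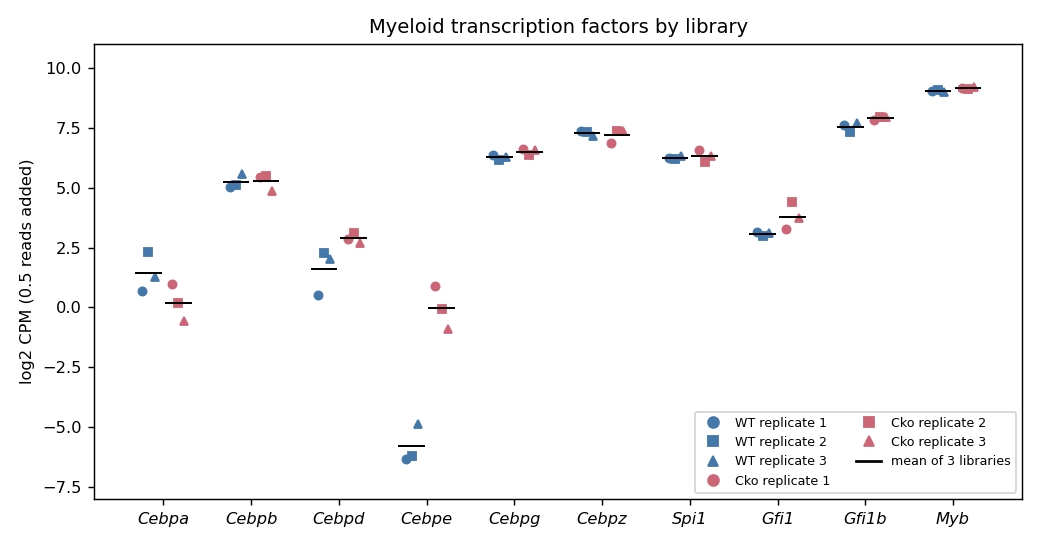
Level of each of the 10 factors in each library, as log2 CPM with 0.5 reads added (vertical axis), with WT libraries in blue, Cko libraries in red, a symbol for each replicate and a bar at each group mean. Cebpe is the factor whose groups lie farthest apart, from 0, 0 and 1 reads in WT to 69, 40 and 23 in Cko, while Cebpa, Cebpb, Cebpg, Cebpz and Spi1 overlap.

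Cebpa, the factor that starts granulocyte development, lies on chromosome 7 (35119293 to 35121928, mm10), 62726 bases from Cebpg. Its level was 1.58, 4.91 and 2.43 CPM in WT and 1.98, 1.12 and 0.664 CPM in Cko, resting on 64 to 181 reads per WT library and 29 to 73 per Cko library. The groups overlapped, since Cko replicate 1 lay above WT replicate 1. The log2 fold change of -1.22 (SE 0.74) had a 95% interval from -2.87 to 0.42 and was not called (adjusted p = 0.604).

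Cebpe, the factor of late neutrophil and eosinophil maturation (chromosome 14, 54710363 to 54712174), was nearly absent from WT, with 0, 0 and 1 reads against 69, 40 and 23 reads in Cko. The ratio of the groups' depth-scaled reads was 129, with a counting interval (95%, exact) of 22.8 to 5138.1 that covers counting error only. Every Cko library lay above every WT library, but the Cko levels of 1.87, 0.932 and 0.526 CPM left the gene under the filter of 1 CPM in 3 libraries. With no filter on low values it was tested and not called (adjusted p = 0.077). Markers of mature cells were higher in the same 3 libraries: the 6 eosinophil granule genes summed to 0.624 to 0.894 CPM in WT and 546 to 649 CPM in Cko, and their part in the Cebpe level was not tested. In bulk RNA, fewer cells of a type and less RNA per cell cannot be told apart.

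Cebpd, a C/EBP gene induced by cytokines and acute inflammation (chromosome 16, 15887286 to 15889545), had the largest positive log2 fold change of the tested factors. It was at 1.41, 4.86 and 3.99 CPM in WT and at 7.17, 8.64 and 6.41 CPM in Cko. WT replicate 1 was lowest and the groups did not overlap. The log2 fold change of 1.28 (SE 0.51, 95% interval 0.14 to 2.42) was not called (adjusted p = 0.419), and the level rested on 57 to 371 reads per library. In RefSeq, Cebpd shares 322 bases with Spidr, a DNA repair gene at 34.1 to 53.7 CPM in these libraries, and with the strand setting not given, reads from the shared stretch cannot be assigned to either gene.

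Cebpb, which drives granulocyte formation in emergencies such as infection (chromosome 2, 167688915 to 167690432), was at 33, 34.6 and 47.4 CPM in WT and 43.6, 44.8 and 28.8 CPM in Cko. WT replicate 3 was the highest and Cko replicate 3 the lowest of the 6 libraries, so that the ranges overlapped over most of their width. Its log2 fold change was 0.02 (SE 0.22, 95% interval -0.48 to 0.51, adjusted p = 0.991). Its sign turned negative on leaving out WT replicate 1 or 2 or Cko replicate 1 or 2, down to -0.10.

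Cebpg, a family member that lacks an activation domain and pairs with other C/EBP proteins (chromosome 7, 35046422 to 35056566), was at 83.5, 72.1 and 76.7 CPM in WT and 97.2, 82.1 and 93.8 CPM in Cko. Only Cko replicate 2 fell within the WT range. Its log2 fold change of 0.23 (SE 0.12, 95% interval -0.04 to 0.51) was not called (adjusted p = 0.559). Cebpz shares the family's name, yet its product is a nucleolar protein without the leucine-zipper domain. It lies on chromosome 17 (78919003 to 78937070) and was at 166, 158 and 143 CPM in WT and 117, 166 and 166 CPM in Cko, where replicate 1 stood below the other 5 libraries. The log2 fold change was -0.08 (SE 0.14, 95% interval -0.40 to 0.24, adjusted p = 0.897), and it was 0.09 without Cko replicate 1. Cebpz overlaps Cebpzos over 2046 bases, and Cebpzos was at 10.3 to 22.3 CPM. Cebpg (1084 bases), Gfi1b (2313 bases) and Mpo (1435 bases) also share bases with annotated gene models.

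Spi1, which encodes PU.1 (chromosome 2, 91082374 to 91115759), was at 76.0, 73.1 and 80.0 CPM in WT and 96.1, 66.8 and 80.8 CPM in Cko. The Cko libraries gave both the highest and the lowest of the 6 values, and the WT range lay inside the Cko range. Its log2 fold change of 0.07 (SE 0.15) had a 95% interval from -0.26 to 0.40 (adjusted p = 0.906), and without Cko replicate 1 it was -0.06. The SD was 3.47 CPM in WT and 14.7 CPM in Cko (n = 3 each).

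Gfi1, a repressor needed in the neutrophil lineage (chromosome 5, 107716655 to 107725805), was at 8.76, 7.79 and 8.55 CPM in WT and at 9.55, 21.0 and 13.3 CPM in Cko. The WT libraries lay close together, and all Cko libraries lay above them, Cko replicate 1 by less than 1 CPM. With a log2 fold change of 0.73 (SE 0.32, 95% interval 0.01 to 1.45), Gfi1 was not called (adjusted p = 0.481). Its paralogue Gfi1b, which acts in erythroid cells and megakaryocytes (chromosome 2, 28609450 to 28621982), was at 199, 158 and 211 CPM in WT and 225, 247 and 245 CPM in Cko. The groups did not overlap, and WT replicate 2 was lowest. Gfi1b had the smallest adjusted p of the tested factors, 0.308, with a log2 fold change of 0.35 (SE 0.11, 95% interval 0.09 to 0.60).

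Myb, needed for progenitors of most lineages (chromosome 10, 21124930 to 21160984), was at 520, 542 and 509 CPM in WT and 566, 555 and 593 CPM in Cko. All Cko libraries lay above all WT libraries by a narrow margin. The log2 fold change of 0.13 (SE 0.06, 95% interval -0.01 to 0.26) was not called (adjusted p = 0.502), and this interval was the narrowest of the 9. Of the megakaryocyte and platelet genes, among which Gfi1b is also expressed, 3 of 10 were called higher, beside 0.407% of all tested genes. The 10 summed to 1727.4 to 1902.3 CPM in WT and 2336.0 to 2604.2 CPM in Cko. Their part in the levels of Gfi1b and Myb was not tested.

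Levels can be set against each other only per length of transcript, here as CPM per kilobase of annotated exon (GENCODE M21, GRCm38). On this scale the WT order was Gfi1b at 103 ± 15.1 (SD, n = 3), Myb at 58.6 ± 1.87, Cebpz at 33.5 ± 2.50, Spi1 at 28.3 ± 1.29, Cebpb at 25.5 ± 5.24, Cebpg at 13.8 ± 1.02, Gfi1 at 2.63 ± 0.161, Cebpa at 1.13 ± 0.656, Cebpd at 0.913 ± 0.478 and Cebpe at 0.00616 ± 0.0107. Spi1 and Cebpb overlapped, and so did Cebpa and Cebpd, while the other neighbours in this order did not. In Cko the order of the 7 most abundant was the same, with Cebpz, Spi1 and Cebpb overlapping. Below them Cebpd (1.98 ± 0.303) came before Cebpe (0.893 ± 0.554) and Cebpa (0.475 ± 0.253), and the last 2 overlapped. Cebpd depends on the length used: over its RefSeq span of 2260 bases it was at 1.51 ± 0.793 in WT and 3.28 ± 0.502 in Cko.

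Of the 11 secondary and tertiary granule genes 6 were called higher in Cko and 0 lower, beside 0.407% and 0.292% of all tested genes. The 9 that passed the filter each had every Cko library above every WT library, a pattern found in 8.52% of tested genes. Their median log2 fold change was 2.78. Members that passed through their Cko libraries alone, such as Hp and Mmp8, had to differ. The list was chosen with earlier results of these libraries known and is not independent evidence of its direction. Ngp, a granule protein of the cathelicidin family, was at 17.3, 25.2 and 23.1 CPM in WT and 125, 157 and 160 CPM in Cko (log2 fold change 2.76, SE 0.18, adjusted p = 8.15e-05). Camp, the antimicrobial peptide cathelicidin, was at 6.24, 5.53 and 5.69 CPM in WT and 36, 40.3 and 43.8 CPM in Cko (2.78, SE 0.22, adjusted p = 0.000242). Ltf, lactoferrin, was at 15.5, 11.7 and 12.8 CPM in WT and 59.5, 54.3 and 45.7 CPM in Cko (2.00, SE 0.20, adjusted p = 0.000917). For each of these genes every Cko library lay above every WT library.

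The other called members were Hp, Lcn2 and Chil3, of which the last 2 are named after their values were seen. Hp, the haemoglobin-binding protein haptoglobin, rose from 0.668 ± 0.228 to 12.5 ± 2.05 CPM (SD, n = 3 each). It was under 1 CPM in every WT library, so it passed the filter through its Cko libraries alone and had to be higher. Lcn2, which binds bacterial siderophores, rose from 7.96 ± 3.95 to 36.3 ± 1.35 CPM, and Chil3, a chitinase-like protein, from 6.53 ± 3.85 to 32.6 ± 3.14 CPM. Mmp8, the neutrophil collagenase, had 0 reads in each WT library and 70, 275 and 561 reads in Cko. Its Cko mean was 94.2 times a floor of 3 reads per WT library, which covers counting error in WT only. Its Cko libraries spread from 1.89 to 12.8 CPM, and Mmp8 did not pass the test (limma adjusted p = 0.0846). Mmp9 (gelatinase B) and the neutrophil antigen Cd177, named with Mmp8 after their values were seen, were at 0.610 ± 0.632 and 0.505 ± 0.633 CPM in WT and 8.89 ± 2.04 and 8.76 ± 2.20 CPM in Cko, and were not called either (adjusted p = 0.210 and 0.177). Olfm4 and Bpi did not pass the filter.

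The primary granule list split. Mpo (myeloperoxidase), Elane (neutrophil elastase), Ctsg (cathepsin G) and Lyz2 (lysozyme) were called higher, beside 0.407% of all tested genes, and 4 of the 8 tested members were not called. Mpo was at 3.64, 0 and 2.20 CPM in WT and 250, 237 and 274 CPM in Cko. Elane had 0, 0 and 19 reads in WT and 2549, 3029 and 2633 in Cko, and Ctsg had 0, 0 and 2 reads against 914, 905 and 944. Mpo was highest in WT replicate 1 among the WT libraries and lay above that level in all Cko libraries. Elane and Ctsg passed the filter through their Cko libraries alone, so that their groups could not overlap. Lyz2, also abundant in monocytes, was already at 558, 572 and 550 CPM in WT and reached 711, 806 and 772 CPM in Cko, with all Cko libraries higher (log2 fold change 0.44, SE 0.06, adjusted p = 0.00818). Srgn, the proteoglycan serglycin on which granule contents are packed, was at 1146.7 ± 24.0 CPM in WT and 1036.4 ± 71.2 CPM in Cko. Every Cko library lay below every WT library, a pattern found in 8.01% of tested genes. Its log2 fold change of -0.15 (95% interval -0.27 to -0.02) was not called (limma adjusted p = 0.398).

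Of the 10 granule calls 7 were lost in at least 1 fit with a library left out, while the log2 fold changes kept their sign, at 0.40 to 0.49 for Lyz2, 3.97 to 4.47 for Hp, 1.93 to 2.68 for Lcn2, 2.13 to 2.92 for Chil3 and 6.48 to 10.51 for Mpo. The limma call of Mpo was lost on leaving out WT replicate 3 or any 1 Cko library (adjusted p = 0.0514 to 0.199) and was not kept with robust variances (0.129), with no filter (0.0835) or with no variance trend (0.320). Without 1 Cko library, Ctsg, Elane and Hp no longer passed the filter, and with the tested genes held fixed Ctsg was then never called (0.0596 to 0.0713), Elane was not called without Cko replicate 2 (0.0573), and Hp was not called without Cko replicate 2 or 3 (0.0648 and 0.0586). With the tested genes held fixed Lyz2 was not called without Cko replicate 2 or 3 (0.0502 and 0.0594). Without any 1 Cko library the calls of Lcn2 (0.0507 to 0.0893) and Chil3 (0.0546 to 0.106) were lost, and that of Chil3 also without WT replicate 3 (0.0587). With no variance trend Elane (0.0834), Lyz2 (0.278), Lcn2 (0.136) and Chil3 (0.150) were not called. Those of Ngp, Camp and Ltf held in each of the 23 alternative fits.

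**Figure D2:**
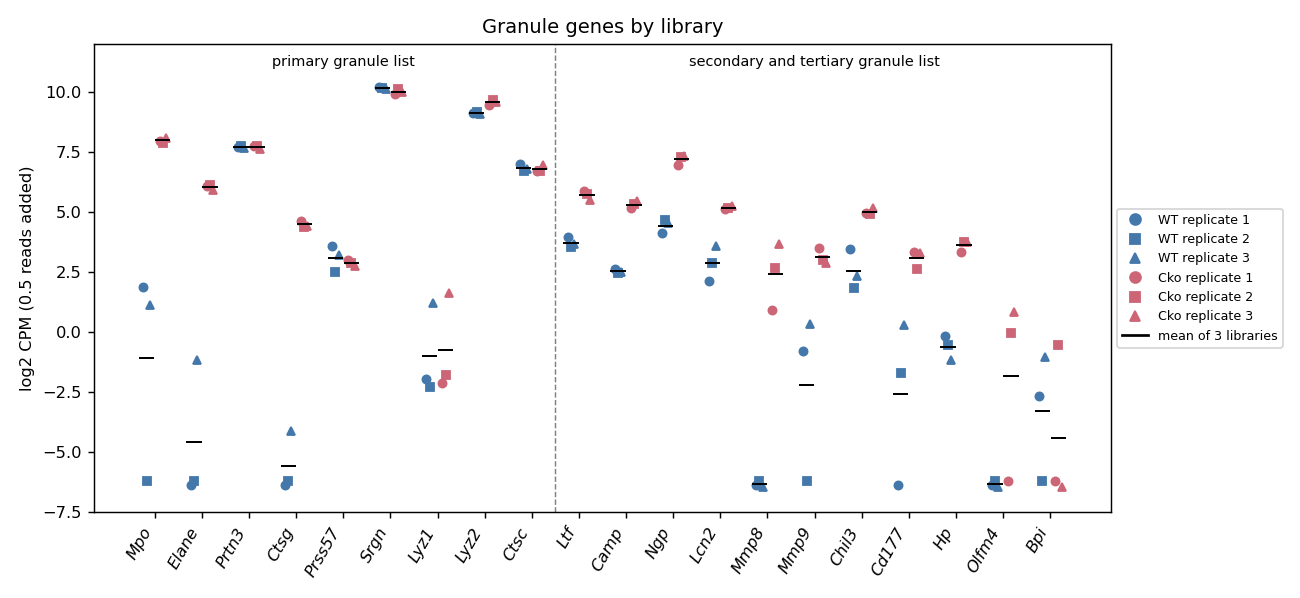
Level of the 9 primary granule genes (left of the dashed line) and 11 secondary and tertiary granule genes (right) in each library, as log2 CPM with 0.5 reads added, with WT in blue, Cko in red and bars at group means. Mpo, Elane and Ctsg have 0 reads in at least 1 WT library and 21.1 CPM or more in every Cko library, while the groups of Prtn3 and of Ctsc overlap.

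Prtn3, the gene of proteinase 3, is the genomic neighbour of Elane. It is named here after its values were seen. Prtn3 and Elane lie 3137 bases apart on chromosome 10 (79879667 to 79883174 and 79886312 to 79888216, mm10), are transcribed in the same direction and encode related serine proteases of the same granule. Prtn3 was at 213, 214 and 201 CPM in WT and 218, 218 and 197 CPM in Cko, with overlapping groups (log2 fold change 0.01, SE 0.08, adjusted p = 0.983). Elane, in the same libraries, was at 0, 0 and 0.436 CPM in WT and 69, 70.6 and 60.3 CPM in Cko. Per kilobase of exon the WT libraries thus held Prtn3 at 121 and Elane at 0.148 CPM, and the Cko libraries held them at 122 and 67.7 CPM.

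The stretches upstream of these genes are shown because C/EBP proteins and PU.1 are known to bind upstream of granule genes. The words searched, on both strands, were TTGCNNAA for C/EBP, GAGGAA for PU.1, AACTG for Myb and AAATCA for Gfi1, in RefSeq windows from 250 bases before to 50 bases after a gene's start (GRCm38.p6, the assembly that mm10 names). Of 32851 such windows 10.8% held the C/EBP word, 28.3% the PU.1 word, 44.8% the Myb word and 14% the Gfi1 word. Of 18 windows of 17 granule genes 5 held the C/EBP word, 11 the PU.1 word, 10 the Myb word and 3 the Gfi1 word. Of 7 windows of 6 of the factors 1 held the C/EBP word, that of Gfi1, 0 held the PU.1 word, 2 the Myb word and 1 the Gfi1 word. Cebpd, Cebpe, Cebpz, Spi1, Prss57, Mmp9 and Hp had no entry. The sequences below run 5′ to 3′ on the strand of the gene, end at the base before its start, and carry the C/EBP and PU.1 words in capitals.
Gfi1 (chr5:107725806-107726055, minus strand): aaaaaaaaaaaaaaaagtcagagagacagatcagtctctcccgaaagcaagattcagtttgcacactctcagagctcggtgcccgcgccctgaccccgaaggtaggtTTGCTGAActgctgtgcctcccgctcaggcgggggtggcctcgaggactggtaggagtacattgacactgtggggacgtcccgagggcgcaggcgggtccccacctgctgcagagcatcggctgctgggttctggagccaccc
Prtn3 (chr10:79879417-79879666, plus strand): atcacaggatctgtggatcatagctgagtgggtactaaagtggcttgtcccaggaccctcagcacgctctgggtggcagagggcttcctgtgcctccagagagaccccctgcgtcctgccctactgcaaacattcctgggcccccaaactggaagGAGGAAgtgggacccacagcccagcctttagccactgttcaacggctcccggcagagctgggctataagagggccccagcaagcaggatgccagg
Elane (chr10:79886062-79886311, plus strand): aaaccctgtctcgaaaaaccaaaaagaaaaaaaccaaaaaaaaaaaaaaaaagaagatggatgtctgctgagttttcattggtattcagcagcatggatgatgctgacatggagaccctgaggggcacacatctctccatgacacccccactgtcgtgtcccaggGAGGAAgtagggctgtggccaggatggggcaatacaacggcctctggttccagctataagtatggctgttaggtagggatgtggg
Mpo (chr11:87793534-87793783, plus strand): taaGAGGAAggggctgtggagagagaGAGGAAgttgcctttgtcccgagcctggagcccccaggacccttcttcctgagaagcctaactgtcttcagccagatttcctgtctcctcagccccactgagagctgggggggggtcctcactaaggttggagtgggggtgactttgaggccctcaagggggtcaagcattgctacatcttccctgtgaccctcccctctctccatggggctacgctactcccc
Ngp (chr9:110419558-110419807, plus strand): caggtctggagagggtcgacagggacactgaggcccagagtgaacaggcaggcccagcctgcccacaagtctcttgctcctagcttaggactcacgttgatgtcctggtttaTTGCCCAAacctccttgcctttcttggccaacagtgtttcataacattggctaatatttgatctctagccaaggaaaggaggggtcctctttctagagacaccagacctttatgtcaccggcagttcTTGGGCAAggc

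Prtn3, whose groups overlapped, and Elane, near 0 in WT, each held 1 PU.1 word, which began 95 and 85 bases before the start, and 0 C/EBP words. Mpo held 2 PU.1 words, which began 247 and 224 bases before the start. Ngp held 2 C/EBP words, which began 138 and 11 bases before the start, and Gfi1 held 1, which began 143 bases before and shares its last bases with a Myb word. The Prtn3 window also held 1 Myb word, which began 104 bases before the start, and that of Elane held 0. A match of letters is a description of the sequence and not a bound site.

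The granule sums were also set against each factor in the same library, with 0.5 reads added to the sum and to the factor. The secondary and tertiary sum was 54.3 to 62.3 CPM in WT and 320 to 369 CPM in Cko, and all 10 ratios share it, so they restate its difference and are given as a description. Relative to Spi1 the sum was 0.736, 0.743 and 0.779 in WT and 3.34, 5.31 and 4.57 in Cko. Relative to Cebpa it was 35, 11 and 25.5 in WT and 161, 314 and 546 in Cko, and relative to Gfi1 6.38, 6.97 and 7.28 in WT and 33.5, 16.9 and 27.8 in Cko. Relative to Cebpe, which had 1 WT read in all, the ratio was lower in Cko, at 1811.7 to 4521 in WT and 170 to 686 in Cko.

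For the primary granule sum, most of which was Srgn and Lyz2, the ratio to 6 of the 10 factors overlapped between groups, was higher in every Cko library for Cebpz and Myb, and was lower in every Cko library for Cebpd and Cebpe. Two-sided exact permutation of 3 libraries against 3 cannot give a p below 0.1, which is 0.143 after Benjamini-Hochberg adjustment over the 20 ratios of both sums. Relative to Spi1 it was 27.5, 27.9 and 25 in WT and 24.5, 38.6 and 30.8 in Cko (exact permutation p = 0.5, adjusted 0.588). Relative to Gfi1b it was 10.5, 12.9 and 9.51 in WT and 10.5, 10.4 and 10.1 in Cko (exact permutation p = 0.7, adjusted 0.737).

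**Figure D3:**
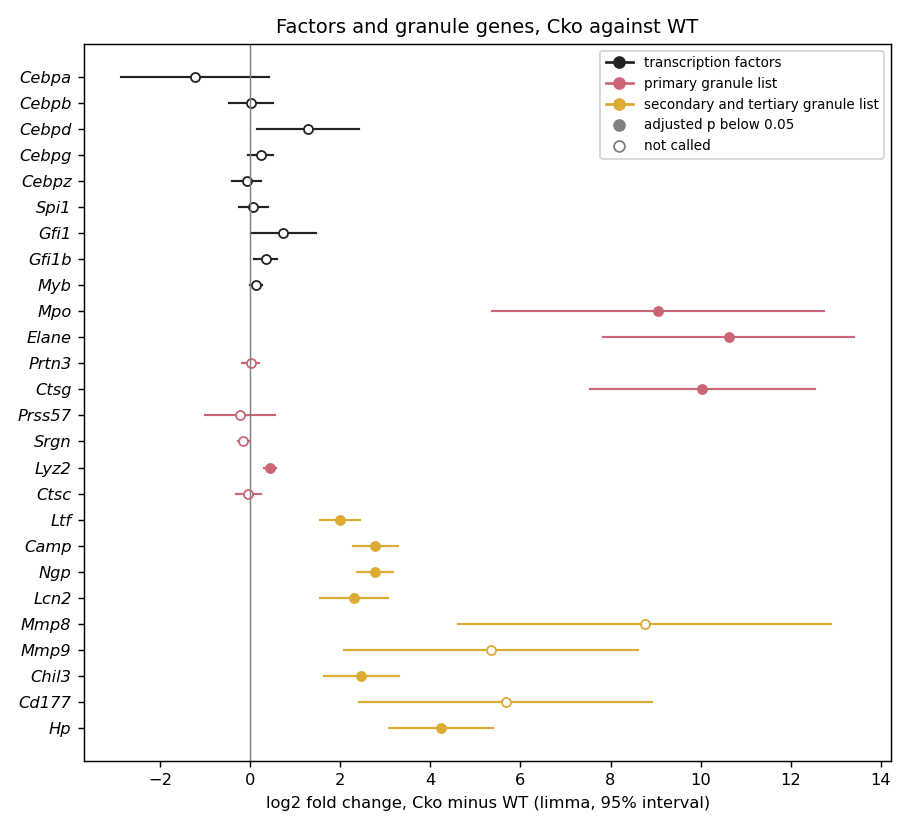
Log2 fold change of Cko over WT (horizontal axis) with its 95% interval from limma for the 9 tested factors (black), 8 primary granule genes (red) and 9 secondary and tertiary granule genes (yellow), with filled points where the adjusted p was below 0.05. The factors lie between -1.22 and 1.28 with open points, whereas 10 granule genes have filled points, from 0.44 for Lyz2 to 10.62 for Elane, a fitted value that depends on the added 0.5 reads.

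Partners and relatives of the factors were examined in further lists. Their counts stand beside 0.407% of all tested genes called higher and 0.292% called lower. A count of 0 among 10 to 12 genes is near that background and is no result about a list. Among C/EBP partners and bZIP relatives 0 of 11 tested members were called (median log2 fold change -0.14). The member with the smallest adjusted p was Trib2, a pseudokinase that directs degradation of C/EBPα, at 39.2, 30.3 and 37.7 CPM in WT and 22.4, 13 and 22.1 CPM in Cko. All 3 Cko libraries lay below the WT libraries, and the difference was not called (log2 fold change -0.93, SE 0.25, adjusted p = 0.195). Of the GATA factor complex 0 of 12 members were called (median -0.08), Lmo2 having the smallest adjusted p (0.283). Of the corepressors of Gfi1 and Gfi1b 0 of 10 were called (median -0.04), Rcor3 having the smallest adjusted p (0.360).

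Among other myeloid factors and partners of PU.1, 1 of 18 tested members was called higher and 2 lower (median 0.01), beside 0.407% and 0.292% of all tested genes. Irf8, which with PU.1 specifies monocytes and dendritic cells, was at 5.59, 2.03 and 3.88 CPM in WT and 32.8, 20.7 and 14 CPM in Cko. All Cko libraries lay above all WT libraries, and the log2 fold change was 2.58 (SE 0.44, adjusted p = 0.0315). Dropping WT replicate 2 or 3 or Cko replicate 1 or 2 ended the Irf8 call (adjusted p = 0.0526 to 0.160), and dropping Cko replicate 3 did so only with the tested genes held fixed (0.0586), while the log2 fold change stayed between 2.18 and 2.91. With voom its adjusted p was 0.0636, with no filter 0.0586 and with no trend 0.198. The 14 monocyte and macrophage genes summed to 20.4 to 44.8 CPM in WT and 121 to 146 CPM in Cko, with Marco at 0 in 5 libraries, and their part in the Irf8 level was not tested. Jun, a partner of PU.1 in macrophage genes, fell from 896 ± 67.6 to 464 ± 24.9 CPM, and Egr1, a zinc-finger factor that favours monocytes, from 179 ± 9.41 to 74.5 ± 4.26 CPM (log2 fold changes -0.95 and -1.26, adjusted p = 0.00017 and 0.000282).

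Genes known as targets of the factors gave 1 call in each of 3 lists, to be read beside 0.407% of all tested genes called higher and 0.292% called lower. Of the genes that Gfi1 is known to repress 0 of 11 were called higher and 1 lower, which was Egr1 (median -0.11). In the list of Myb relatives, coactivators and targets 1 of 13 was called higher, which was Mpo (median 0.01). Of the receptors downstream of C/EBP proteins and PU.1, 1 of 15 was called higher (median 0.48). That gene was Csf2rb, the shared β chain of the receptors for GM-CSF, IL-3 and IL-5, at 12.5, 15.4 and 17.3 CPM in WT and 43.5, 31.0 and 53.0 CPM in Cko (log2 fold change 1.47, SE 0.24, adjusted p = 0.0214). It has a close copy, Csf2rb2, so its reads may have been split or shared in counting. Dropping any 1 library other than Cko replicate 2 ended this call in at least 1 fit (adjusted p = 0.0514 to 0.142), as did omitting the trend (0.137). Csf3r, the G-CSF receptor, was at 83.3, 91.3 and 88.7 CPM in WT and 95.4, 92.7 and 114 CPM in Cko and was not called (adjusted p = 0.616). It is named after its values were seen.

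**Figure D4:**
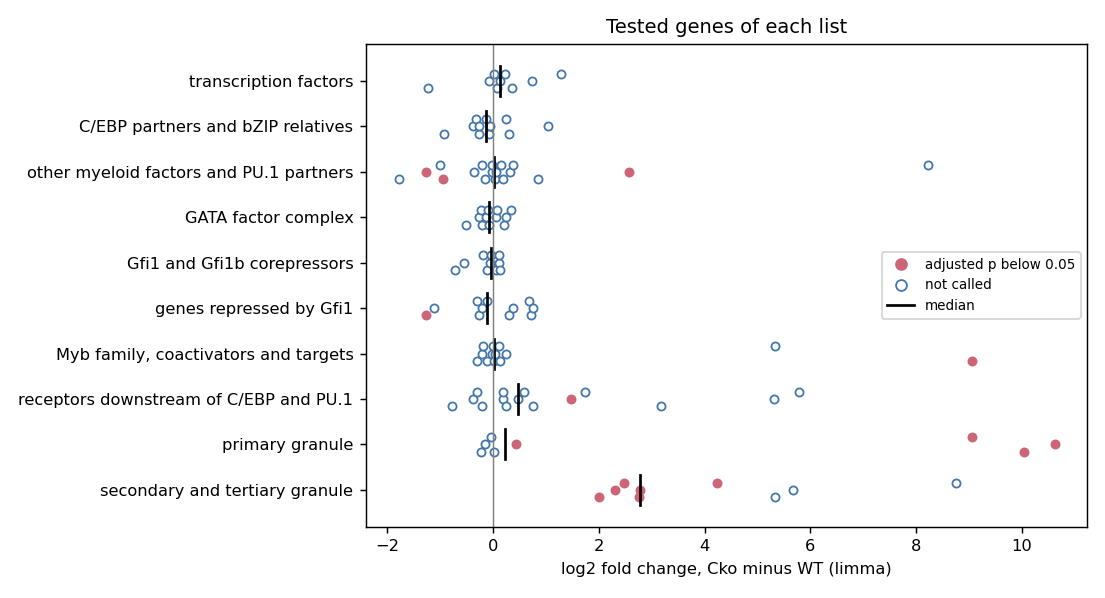
Log2 fold change of Cko over WT (horizontal axis) for every tested gene of the factors, of 7 lists of partners, relatives and targets and of both granule lists (rows), with called genes in red, others open and a black bar at each median. The medians of the first 8 rows lie between -0.14 and 0.48, and that of the secondary and tertiary granule list lies at 2.78.

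Some genes of other mature cells were higher in the same Cko libraries. Counts of calls in these lists stand beside 0.407% of all tested genes called higher and 0.292% called lower. All 6 eosinophil granule genes were called higher, among them Epx (eosinophil peroxidase), with 0 reads in each WT library and a Cko mean 1352.8 times the floor. No WT library reached 1 CPM for any of these 6 genes, so they passed the filter through their Cko libraries alone and had to be higher, and the same holds for Prss34 and Mcpt8. Of the basophil and mast cell genes 2 of 6 tested members were called higher, Prss34 and Mcpt8, both with 0 reads in WT. Gzmb, Tpsb2 and Cma1 had 0 reads in every library. The 10 genes summed to 927 to 1042.2 CPM in WT and 847 to 1042.0 CPM in Cko. Most of this sum was Kit, a gene of the LT-HSC gate, at 914, 990 and 1026.6 CPM in WT and 904, 748 and 948 CPM in Cko. The sum thus says little about the other genes of this list. The 12 B and plasma cell genes summed to 60.8 to 68.6 CPM in WT and 240 to 256 CPM in Cko. Most of the WT sum was Cd79b, at 57.8, 62 and 63.2 CPM in WT and lower in Cko, at 40, 45.4 and 51.4 CPM. Igkc had 0 reads in each WT library and was at 116, 124 and 114 CPM in Cko. Of the 8 tested members 7 had a positive log2 fold change and 1, Cd79b, a negative one. The 10 neutrophil cytosol and surface genes summed to 137 to 152 CPM in WT and 397 to 579 CPM in Cko. Of these genes 3 of 6 tested were called higher, among them S100a8, at 17.5, 24.3 and 21.8 CPM in WT and 121, 151 and 201 CPM in Cko, while Ly6g was at or below 1.05 CPM. In the other lists 2 of 11 monocyte, 1 of 8 B and plasma cell, 0 of 3 T and NK cell, 0 of 7 erythroid, 0 of 6 endothelial and 1 of 5 stromal genes were called higher and 0 lower. Of these calls, F13a1 (monocyte) and Igkc (B and plasma cell) passed the filter through their Cko libraries alone and had to be higher. The counts of 0 are near the background and are no result about those lists. The part of these cell types in the levels of the 10 factors was not tested.

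Genes with the most similar profile were found by the root mean square difference of log2 values over the 6 libraries after centring each gene on its mean. For Cebpd, whose log2 fold change of 1.28 was the largest in size in the reported fit, just ahead of Cebpa at -1.22 and behind it with quantile normalization (1.19 against -1.86), these were Mapk11 (difference 0.22), Phlda3 (0.23) and Aebp1 (0.25), of which 0 were called (adjusted p = 0.552, 0.523 and 0.469). For Gfi1, added after its values were seen, these were Fam171a2 (0.20), Csnk2a2 (0.20) and Nradd (0.21), of which 0 were called (0.736, 0.502 and 0.497). For Cebpe, also added after its values were seen, these were Ccl6, a myeloid chemokine (0.86), Stx1a (0.92) and Ptpro (0.94). All 3 were farther away than the genes nearest to Cebpd and Gfi1. Ccl6 was at 1.16, 0.760 and 1.58 CPM in WT and 25.9, 28 and 19.5 CPM in Cko and was called (limma adjusted p = 0.000615). Stx1a and Ptpro were not called (limma adjusted p = 0.402 and 0.36). Neighbours were sought among tested genes only. Stx1a and Ptpro were under 1 CPM in every WT library, so they passed the filter through their Cko libraries alone and had to be higher.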

How the data were processed

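RNA-seq libraries of sorted LT-HSC, 3 WT and 3 Cko technical replicates, were analysed from 1 gene-level table of the whole series. HISAT2, featureCounts, limma and FastQC, with mouse build mm10, are named per the submitters' processing notes. For versions, gene annotation and strand setting the sources used here give nothing. The values deposited by the authors are log2 CPM, read from the values themselves: taken as 0.5 reads added before scaling, 100.0% of them gave whole reads (tolerance 0.01 reads). Gene IDs were matched to RefSeq GRCm38.p6 symbols for 25275 of 27179 rows, and coordinates of genes are RefSeq's. Genes at or above 1 CPM in 3 of 6 libraries (13018) entered a limma fit (version 3.58.1, R 4.3.3) on the deposited log2 values, with a variance trend, no replicate block and Benjamini-Hochberg adjustment over all tested genes. A call is an adjusted p below 0.05. Ratios of each granule sum to each factor were compared with SciPy 1.17.1 by exact permutation. The limma step was tested on simulated data. With 36747729 to 43743795 reads per library, a count of 0 allows up to 3 reads, a mean of 0.0748 CPM in WT, for counting error only. Replicate numbers did not pair the libraries.

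The members and all gene lists were chosen with earlier results of these data known. Named were Prdm16, the 10 factors, of each other list up to 4 called members by smallest adjusted p or else the tested member with the smallest, of the granule lists also the 3 highest in Cko, and the 3 genes nearest in profile to the factor with the largest change in the reported fit; others are marked. Alternatives were other pseudocounts, filters, variance models and scalings, voom on the recovered reads, a block on replicate number, and fits that each omitted 1 library, with the filter set again or the tested genes held fixed.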

Additional observations from a re-analysis of the deposited data

How the results depend on the processing

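In all 23 alternative fits 0 of the tested factors were called, with or without any 1 library. The smallest adjusted p over these fits (limma) was 0.211 for Gfi1b, 0.263 for Cebpd and 0.426 for Gfi1, and the log2 fold changes ranged from -1.86 to -0.33 for Cebpa, 0.58 to 1.63 for Cebpd, 0.43 to 1.00 for Gfi1 and 0.22 to 0.43 for Gfi1b. The sign of Cebpb turned with voom (-0.0039) and between leave-one-out fits (-0.10 to 0.22), as did those of Cebpz (-0.16 to 0.09), Spi1 (-0.06 to 0.21) and Prtn3 (-0.02 to 0.06). Genes called higher, 53 in the reported fit, numbered 83 without the filter on low values, 105 and 104 on log2(CPM + 1) and log2(CPM + 5), and 20 to 66 on leaving out 1 library. Genes called lower, 38 in the reported fit, numbered 59 and 64 on log2(CPM + 1) and log2(CPM + 5), 15 without the variance trend, 23 with the replicate block and 19 to 31 on leaving out 1 library. Granule genes called higher, 10 in the reported fit, numbered 6 without the trend and 3 to 12 on leaving out 1 library. Same-numbered libraries did not deviate together (correlations -0.0102, -0.0211 and 0.0195), and with the replicate number as a block 44 genes were higher, 0 factors were called and 10 granule genes were higher. The cause of these shifts was not tested. Cebpa and Cebpd rested on 29 to 371 reads per library and Cebpe on 0 to 69, and the part of depth in their spread was not tested.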
